A study of Mus musculus with 15 samples.

Results

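The double knockdown of *Tnks* and *Tnks2* was followed across the whole transcriptome of primary mouse articular chondrocytes. The 3 libraries transfected with siRNAs against both genes were set against the 3 libraries transfected with control siRNA of the same replicate numbers, and every gene that passed a filter on low counts was kept, which left 13672 of the 24134 genes in the count table. The chondrocytes came from the femoral condyles and tibial plateaus of ICR mice aged 4 to 5 days and were transfected at passage 0 with METAFECTENE PRO, in both groups alike. The labels give 3 biological replicates per group, but do not say which animals went into a culture, and no time between transfection and harvest was found for these libraries. The same study also holds 9 libraries of chondrocytes kept for 108 h in DMSO, or in 10 µM XAV939 or IWR-1, 2 small-molecule tankyrase inhibitors, and these serve below only to show where the knockdown differs.

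Tankyrase 1 and tankyrase 2, the products of *Tnks* and *Tnks2*, are poly(ADP-ribose) polymerases that bind their substrates through ankyrin repeats and modify them with chains of ADP-ribose. The modified proteins are often ubiquitinated by the ligase RNF146 and degraded, and the best known substrates are the axins, scaffolds of the complex that destroys β-catenin. Other substrates and partners act at telomeres, at the mitotic spindle, in the Hippo pathway through the angiomotins and in vesicle transport, so the genes were read by pathway and not through cartilage matrix alone.

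The siRNA duplexes are shown because they define the perturbation and the sites at which transcripts could be cut. They are written 5′ to 3′ without their dTdT overhangs, and capitals in the antisense strand mark its seed, bases 2 to 8.
*Tnks* sense: gucugucguugaguaccuu
*Tnks* antisense: aAGGUACAcaacgacagac
*Tnks2* sense: gugucuacuuguaucacau
*Tnks2* antisense: aUGUGAUAcaaguagacac
Among the GENCODE M21 transcripts (GRCm38), the *Tnks* sense strand matched 2 transcripts, both of *Tnks*, in the coding sequence of exon 14 of 27 at chr8:34855966-34855984 on the minus strand. The *Tnks2* sense strand matched 1 transcript, of *Tnks2*, in the 3′ UTR within exon 27 of 27 at chr19:36892822-36892840 on the plus strand. The listed *Tnks* antisense strand differed from the reverse complement of its sense strand by 1 substitution, U8A, counted from the 5′ end of the antisense strand with the complement's base first. Whether the duplex that was transfected carried this difference was not tested.

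The target genes were low in every knockdown library. Levels are given throughout as CPM, counts scaled to library size as edgeR does, for replicates 1, 2 and 3 in that order, and changes as log2 fold changes of knockdown over control with the standard error (SE) of a paired fit over 3 pairs. Adjusted p-values come from the quasi-likelihood F test of edgeR with Benjamini-Hochberg adjustment over all 13672 genes, and a gene was called at an adjusted p under 0.05. *Tnks* measured 69, 58.4 and 70.1 CPM with control siRNA and 19.5, 12.7 and 24 CPM after knockdown, and *Tnks2* measured 118, 119.6 and 115 CPM with control siRNA and 58.2, 44.9 and 61.2 CPM after knockdown. The groups did not overlap for either gene. *Tnks* fell by 1.84 ± 0.12 and *Tnks2* by 1.11 ± 0.10 on the log2 scale, with adjusted p-values of 0.00165 and 0.0026. Since sense-strand seeds and antisense seeds can act on other transcripts, genes whose 3′ UTR holds the complement of a seed were also counted. Among tested genes with an annotated 3′ UTR, the 1648 with a site for the *Tnks* antisense seed as listed had a median log2 fold change of −0.0194 against −0.0034 in those without, and 19.96% against 16.6% of them were called lower. The 1114 genes with a site for the *Tnks2* antisense seed had a median of −0.0077 against −0.0053, and 17.7% against 17.0% were called lower. With the *Tnks* antisense seed read from the sense strand, 1062 genes had −0.0229 against −0.0033, and 19.8% against 16.8% were lower. For the *Tnks* sense seed, 279 genes had −0.0462 against −0.0047, and 20.1% against 17.0% were lower. For the *Tnks2* sense seed, 1176 genes had 0.0118 against −0.007, with 17.1% against 17.0% lower and 21.3% against 18.0% higher. Genes with a site also had the longer 3′ UTRs, with medians of 2516 against 1069 bases for the listed *Tnks* antisense seed and 2788 against 1108 for the *Tnks2* antisense seed. The part of seed sites or of 3′ UTR length in these shares was not tested.

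The libraries held 26857070 to 31254278 counts on 16440 to 16700 detected genes, and the 10 most abundant genes took 16.7 to 19.7% of the counts with control siRNA and 19.1 to 25.9% after knockdown. All 10 chondrocyte markers passed the filter, with a summed level of 88419 to 114237 CPM with control siRNA and 120811 to 179623 CPM after knockdown. None of 6 erythroid markers passed it, and *Cd3e*, which marks T cells, was at 0 in every library. Osteoclast markers summed to 20.5 to 27.8 CPM with control siRNA and 31.1 to 37.1 CPM after knockdown. Of the 4 tested, 3 were called higher, against 18.1% of all genes, and none lower, while *Calcr*, *Ocstamp* and *Dcstamp* did not pass the filter. Leukocyte markers summed to 15.9 to 17.6 CPM and 36.9 to 54.3 CPM, with 1 of 3 tested higher. The part of such cells in the lists below was not tested. Knockdown replicate 2 stood apart from replicates 1 and 3 on the first principal component (53.2 against 19.4 and 10.7, controls −31.4 to −23.9), which held 61.6% of the variance. Values without that pair are therefore given beside many of the list counts, though not beside all. In bulk RNA, fewer cells of a kind and less RNA per cell cannot be told apart.

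The knockdown moved a large part of the transcriptome by small amounts. Of the 13672 genes, 2471 rose and 2256 fell, that is 18.1% and 16.5%, or 34.6% in either direction, and each list below is read against these shares. The median size of a called change was 0.44 on the log2 scale, while 436 genes rose and 294 fell by more than 2-fold, and 145 rose and 56 fell by more than 3-fold. The median over all genes was −0.0024. The groups did not overlap in 5993 genes, 43.8% of those tested, and 3986 of these were called. A fit that ignored the pairs called 2459 genes, 18.0% of those tested, with 10.4% higher and 7.61% lower, and 2458 of these had the same call in the paired fit. Leaving out pair 1, 2 or 3 left 1473, 6550 and 2655 calls. The fit without pair 2 gave the most calls, and in that fit edgeR moved every gene fully to the trend of the spread (infinite prior degrees of freedom).

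**Figure D1:**
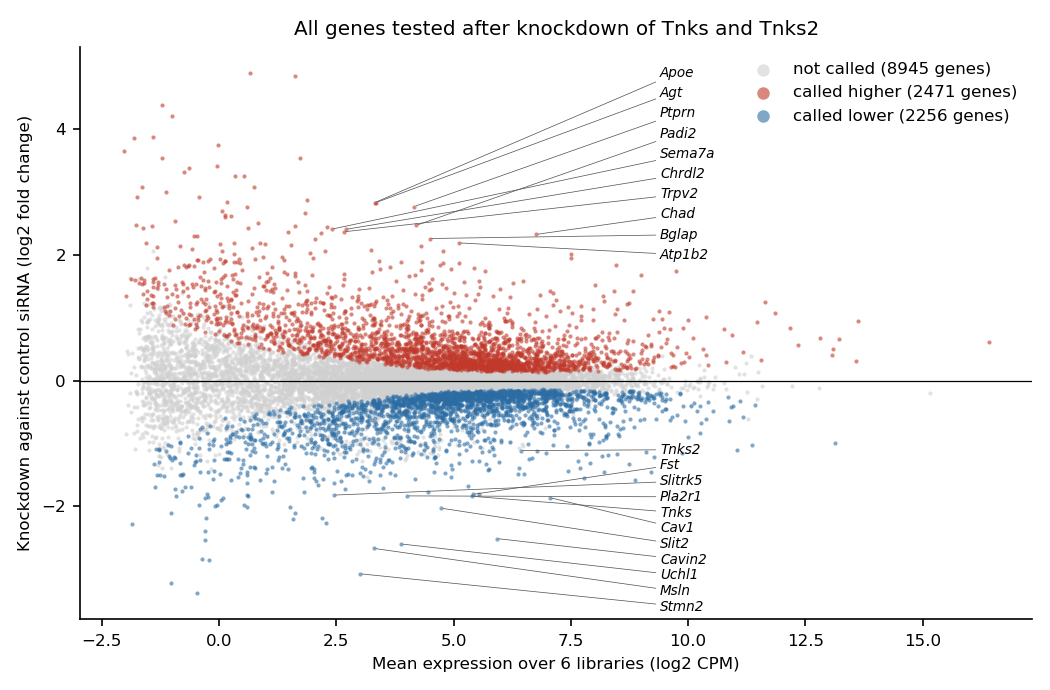
Each point is 1 of the 13672 genes tested, with its mean level over the 6 libraries (log2 CPM) on the horizontal axis and its log2 fold change of knockdown over control siRNA on the vertical axis, coloured where it was called higher (2471 genes), called lower (2256 genes) or not called. The labelled genes are the strongest 10 each way with *Tnks2*, and most coloured points lie within 1 log2 unit of 0.

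The strongest rises among genes with a mean of at least 5 CPM whose groups did not overlap included genes of secreted and membrane proteins. *Ptprn*, a phosphatase-like protein of dense-core secretory vesicles, rose from 4.01, 4.66 and 5.02 CPM to 29.8, 33.9 and 29.9 CPM, a log2 fold change of 2.77 ± 0.09, adjusted p = 0.000692. Its knockdown libraries lay close to each other. *Apoe*, a carrier of lipids, measured 3.42, 1.88 and 1.90 CPM with control siRNA and 22, 20.7 and 10.1 CPM after knockdown, and *Agt*, the precursor of angiotensin, 1.84, 3.10 and 2.23 CPM with control siRNA and 11.9, 28.8 and 13 CPM after knockdown. The log2 fold changes of *Apoe* and *Agt* were 2.83 ± 0.20, adjusted p = 0.00166 and 2.83 ± 0.15, adjusted p = 0.00127. *Chrdl2*, a secreted antagonist of BMPs, rose from 2.21, 1.81 and 2.17 CPM to 11.1, 9.52 and 12.3 CPM (2.41 ± 0.11, adjusted p = 0.000921). *Chad*, the leucine-rich matrix protein chondroadherin, rose from 29.6, 45.9 and 29 CPM to 147, 279.6 and 120.2 CPM (2.33 ± 0.11, adjusted p = 0.00102), although it overlaps the tested gene *Acsf2*. The others were *Padi2*, a peptidylarginine deiminase that overlaps *Gm13031* (2.47), *Sema7a*, a membrane-anchored semaphorin (2.41), the cation channel gene *Trpv2* (2.37), *Bglap* for osteocalcin (2.26) and *Atp1b2*, a subunit of the sodium pump (2.19). *Bglap* has near-identical neighbouring copies between which reads may be split, and it was low in both libraries of replicate 2 (9.83, 2.40 and 11.2 CPM with control siRNA and 46.4, 12.3 and 52.7 CPM after knockdown). Its change was called in the paired fit (adjusted p = 0.000692) and not without the pairs (adjusted p = 0.0589).

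The strongest falls beside *Tnks* itself included 2 caveola genes. *Stmn2*, a microtubule-destabilizing stathmin, fell from 15.7, 8.28 and 18.9 CPM to 1.74, 0.606 and 2.97 CPM, a log2 fold change of −3.07 ± 0.20, adjusted p = 0.00153. *Uchl1*, a ubiquitin hydrolase abundant in neurons, fell from 24.4, 25.5 and 26.1 CPM to 4.51, 3.10 and 4.99 CPM (−2.60 ± 0.14, adjusted p = 0.00127). *Msln*, the surface glycoprotein mesothelin, measured 16.5, 16.3 and 18.4 CPM with control siRNA and 1.70, 3.28 and 3.17 CPM after knockdown, with a log2 fold change of −2.67 ± 0.19, adjusted p = 0.00166. Like the rises, the genes of this set were picked for groups that do not overlap and for all pairs moving one way. *Cavin2* and *Cav1* encode coat proteins of caveolae, the small invaginations of the plasma membrane. *Cavin2* measured 95.7, 102 and 108 CPM with control siRNA and 22.7, 6.27 and 30.3 CPM after knockdown, and *Cav1* 197, 177 and 234 CPM with control siRNA and 69.1, 23 and 97.1 CPM after knockdown, and both were lowest in knockdown replicate 2. Their log2 fold changes were −2.51 ± 0.40, adjusted p = 0.00925 and −1.86 ± 0.32, adjusted p = 0.0111. *Slit2*, an axon guidance ligand (−2.03), *Pla2r1*, a phospholipase A2 receptor (−1.84), *Slitrk5*, a neuronal membrane protein (−1.82), and *Fst* for follistatin, which binds activins (−1.81), completed the set. The markers of neurons and Schwann cells summed to 91.6 to 93.0 CPM with control siRNA and 110.4 to 127 CPM after knockdown, with 1 of 3 tested markers higher and none lower, and the other 4 of 7 did not pass the filter.

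Gene lists of 66 pathways, complexes and families were then read against the background of all genes. They were drawn up with earlier results of these data known, so each is a description given by its counts and its median, with no test of the list. Of the genes named in this way, *E2f1*, *Fzd4*, *Hspa5*, *Mrpl21*, *Mrps7*, *Nup62*, *Pcx*, *Srpr*, *Vcl* and *Wnt5b* also overlap another tested gene, so that reads may be mixed. Called with the pairs and not without them were *Actb*, *Amot*, *Bglap*, *Bmp4*, *Bub1b*, *C1ra*, *Cdc20*, *Cdk1*, *E2f1*, *Gins4*, *Idh3a*, *Ifit1*, *Lcn2*, *Lgr6*, *Mad2l1*, *Pappa2*, *Psat1*, *Rpl22l1* and *Spc24*.

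**Figure D2:**
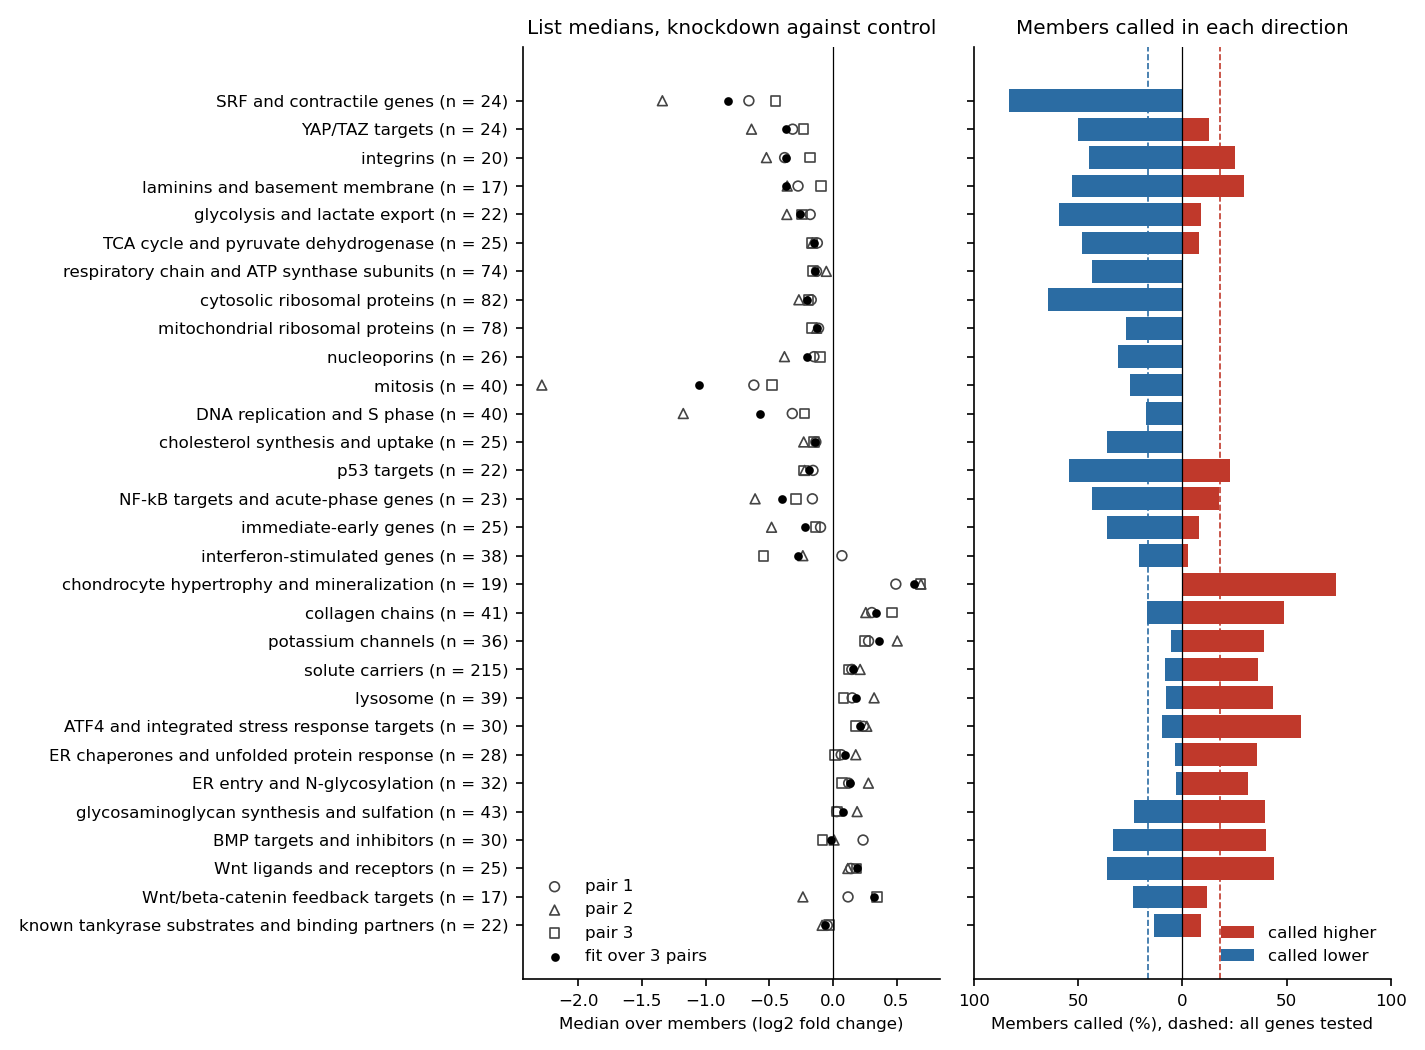
The left panel gives the median log2 fold change of the members of 30 lists, over the 3 pairs (filled points) and in each pair (open symbols), and the right panel gives the percentage of members called higher (red) and lower (blue), with dashed lines at 18.1% and 16.5% for all genes tested. SRF and contractile genes reach 83.3% called lower, and the open symbols of pair 2 lie farthest from 0 for mitosis.

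The list with the largest share of members called lower was that of SRF and contractile genes. Serum response factor, encoded by *Srf*, works with actin-sensing cofactors and drives genes of actin, myosin and their crosslinkers. Of 24 members tested, 20 fell and none rose (83.3%, against 16.5% of all genes), and the median was −0.82. *Acta2*, the smooth muscle actin of myofibroblasts, measured 793, 1081 and 691 CPM with control siRNA and 362, 184 and 423 CPM after knockdown. *Tagln*, an actin-binding protein of the same cells that overlaps *Pcsk7*, measured 302, 415 and 259 CPM with control siRNA and 138, 56.6 and 157 CPM after knockdown. Neither gene's groups overlapped, and knockdown replicate 2 was the lowest library for both. Their log2 fold changes were −1.45 ± 0.35, adjusted p = 0.0277 and −1.55 ± 0.41, adjusted p = 0.0359. *Cnn2*, a calponin, fell from 306, 339 and 291 CPM to 179.9, 111 and 187 CPM (−1.004 ± 0.19, adjusted p = 0.0148), and *Tpm1*, a tropomyosin, from 599, 586 and 535 CPM to 385, 256 and 408 CPM (−0.74 ± 0.15, adjusted p = 0.0178). The myosin light chain gene *Myl9* (−1.18), the LIM-domain cofactors *Fhl2* (−0.82) and *Tgfb1i1* (−0.94), and *Srf* itself (−0.46) also fell. *Actb* was called lower with the pairs (−0.68, adjusted p = 0.0202) and not without them (adjusted p = 0.0515), and *Vcl*, for the focal adhesion protein vinculin, was not called (−0.43, adjusted p = 0.122). Actin genes have processed pseudogenes that may take up reads. The list's median was −0.66, −1.34 and −0.45 in pairs 1, 2 and 3. Without the pairing 15 members were called lower, and without pair 1, 2 or 3 the counts were 5, 23 and 19, with none called higher in any of these fits and a median of −0.53 without pair 2.

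The promoters of these genes are shown because the list is defined around a factor with a known binding sequence. In a window around each RefSeq start site (250 bases before and 50 after, GRCm38.p6), 8 of 23 windows of the list, 34.8%, held the sequence known as the CArG box, against 1.29% of the 13841 windows of all tested genes with one. Both strands were searched, and capitals mark the match.
*Cnn2*, chr10:79988529-79988568, plus strand: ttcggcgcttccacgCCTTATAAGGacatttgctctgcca
*Myl9*, chr2:156775288-156775327, plus strand: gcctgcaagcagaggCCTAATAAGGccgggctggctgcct
*Fhl2*, chr1:43163968-43164007, minus strand: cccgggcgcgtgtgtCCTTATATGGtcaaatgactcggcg
*Actg1*, chr11:120348561-120348600, minus strand: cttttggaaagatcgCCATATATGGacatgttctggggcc
*Srf*, chr17:46556220-46556259, minus strand: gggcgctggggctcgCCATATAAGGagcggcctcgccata
Of the 7 listed genes with a match, 6 fell, the 5 shown among them, and *Vcl* was not called. The match describes the sequence, not binding in these cells. Many of the listed genes were picked for known regulation by SRF, so the share is no independent result.

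Genes that couple the actin cytoskeleton to the matrix were lower in part. YAP and TAZ are mechanically regulated coactivators, and of 24 tested targets 12 fell and 3 rose, with a median of −0.37 (7 and 2 without the pairing, and 7, 14 and 10 lower without pair 1, 2 or 3). The median was −0.32, −0.64 and −0.23 in pairs 1, 2 and 3, and −0.23 in the fit without pair 2. The receptor tyrosine kinase gene *Axl* fell from 272, 264 and 314 CPM to 125, 75.1 and 162 CPM (−1.29 ± 0.17, adjusted p = 0.00561), and *Ccn1*, a matricellular protein, from 505, 823 and 511 CPM to 245, 209 and 258 CPM (−1.33 ± 0.20, adjusted p = 0.00813). *Dock5*, an activator of Rac, fell as well (−0.75), while *Gadd45a*, a stress gene that overlaps *E230016M11Rik* (0.91), and *Nt5e*, an ectonucleotidase (0.52), rose. Among 20 integrins 9 fell and 5 rose, with a median of −0.37 (4 and 3 without the pairing, and 4, 9 and 8 lower without pair 1, 2 or 3). The collagen receptor subunit *Itga2* measured 19.5, 13.2 and 26.3 CPM with control siRNA and 5.73, 4.67 and 11 CPM after knockdown, and the laminin receptor subunit *Itga3* 126, 145 and 143 CPM with control siRNA and 57, 47.1 and 71 CPM after knockdown. Both were lower in every knockdown library, with log2 fold changes of −1.50 ± 0.12, adjusted p = 0.0019 and −1.25 ± 0.12, adjusted p = 0.00293. *Itga10*, a subunit of the collagen receptor of chondrocytes, went the other way, from 126, 157 and 127 CPM to 211, 253 and 205 CPM (0.71 ± 0.04, adjusted p = 0.00151). Of 17 laminin and basement membrane genes 9 fell and 5 rose (5 and 3 without the pairing, and 4, 9 and 8 lower without pair 1, 2 or 3), with *Lama3* lower (−1.72) and *Lama1*, *Agrn* and *Lamc3* higher (1.21, 0.57 and 2.20). The fibroblast and perichondrium markers summed to 5422 to 9624 CPM with control siRNA and 2621 to 8039 CPM after knockdown, with 1 of 9 tested markers higher and 1 lower, and their part in these lists was not tested.

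**Figure D3:**
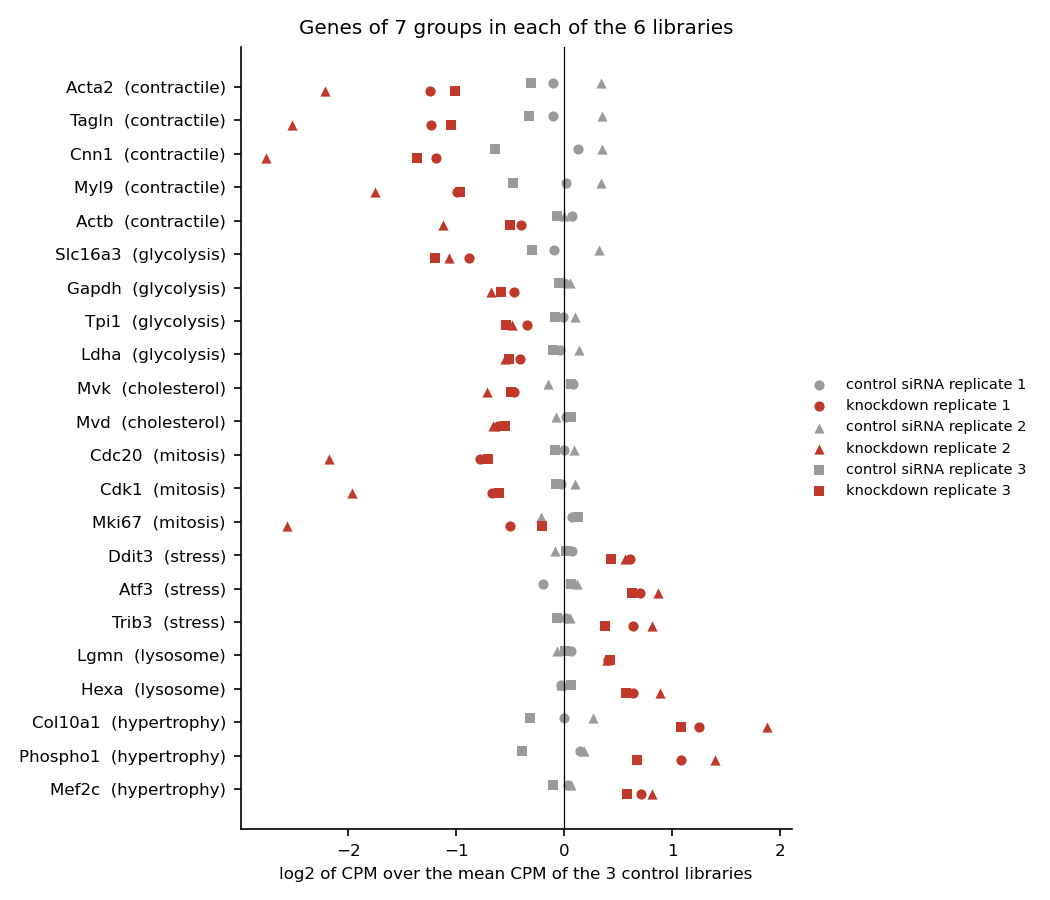
Each symbol is 1 library (control siRNA grey, knockdown red, 1 shape per replicate number), placed by the log2 of its CPM over the mean CPM of the 3 control libraries for 22 genes of 7 groups. For *Acta2* and *Tagln* the knockdown libraries lie left of all control libraries and for *Atf3* and *Hexa* to their right, while for *Mki67* knockdown replicate 3 lies among the controls.

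Most cytosolic ribosomal protein genes fell by small amounts, and mitochondrial genes fell in part. Of 82 cytosolic ribosomal protein genes 53 fell and none rose (64.6%, against 16.5% of all genes), with a median of only −0.21, and 79 of the 82 had a negative log2 fold change. *Rpl29* measured 312, 329 and 319 CPM with control siRNA and 258, 233 and 249.6 CPM after knockdown, and *Rps21* 266, 249 and 233 CPM with control siRNA and 208, 182 and 191 CPM after knockdown. Neither gene's groups overlapped, and the changes were −0.38 ± 0.06, adjusted p = 0.00919 and −0.37 ± 0.05, adjusted p = 0.00714. *Rps10* (−0.36) and *Rpl22l1* (−0.50) fell by like amounts. Ribosomal protein genes have many processed pseudogenes with which reads may be shared. Without the pairing 21 members were called lower, and without pair 1, 2 or 3 the counts were 1, 67 and 4, while the median stayed between −0.24 and −0.18. Among 78 mitochondrial ribosomal protein genes 21 fell and none rose, with a median of −0.12 (11 without the pairing, and 2, 35 and 3 without pair 1, 2 or 3) and a range of −0.64 to 0.19, led by *Mrpl54*, *Mrps7*, *Mrpl21* and *Mrpl12* (−0.38, −0.32, −0.44 and −0.30).

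Of 74 subunits of the respiratory chain and ATP synthase 32 fell and none rose, with a median of −0.14 (13 without the pairing, and 4, 46 and 3 without pair 1, 2 or 3). *Cox7b*, a cytochrome c oxidase subunit, fell from 96.3, 108 and 93.4 CPM to 72, 81.1 and 72.3 CPM (−0.40 ± 0.04, adjusted p = 0.00352), and *Uqcr11*, of the cytochrome bc1 complex, from 68.6, 66.1 and 63.6 CPM to 53, 51.5 and 49.2 CPM (−0.37 ± 0.04, adjusted p = 0.00427). The ATP synthase gene *Atp5b* (−0.30) followed. Among 25 genes of the TCA cycle and pyruvate dehydrogenase 12 fell and 2 rose, with a median of −0.15 (5 and 2 without the pairing, and 1, 14 and 4 lower without pair 1, 2 or 3) and a range of −0.47 to 0.40. *Idh3a*, *Cs* and *Sucla2* fell (−0.47, −0.30 and −0.28), while *Pcx*, for pyruvate carboxylase, rose (0.40).

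Glycolysis changed by more. Of 22 genes of glycolysis and lactate export 13 fell and 2 rose, with a median of −0.26 (10 and 2 without the pairing, and 3, 15 and 6 lower without pair 1, 2 or 3). *Slc16a3*, the lactate exporter MCT4, measured 176, 234 and 152 CPM with control siRNA and 102, 89.7 and 81.5 CPM after knockdown, although it overlaps *Csnk1d*. *Gapdh*, a glycolytic dehydrogenase often used as a reference gene, measured 2748, 2859 and 2658 CPM with control siRNA and 1989.7, 1722 and 1835 CPM after knockdown. No knockdown library reached a control library for either gene, and the changes were −1.02 ± 0.12, adjusted p = 0.00437 and −0.58 ± 0.08, adjusted p = 0.00627. *Ldha*, for lactate dehydrogenase, and *Tpi1*, for triosephosphate isomerase, which overlaps *Spsb2*, fell by 0.49 ± 0.08 and 0.46 ± 0.07 on the log2 scale. The HIF targets outside glycolysis were not as uniform, with 7 of 24 lower and 3 higher and a median of −0.06 (1 and 1 without the pairing, and 4, 8 and 4 lower without pair 1, 2 or 3).

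The genes of cholesterol synthesis and uptake fell in part. Of 25 members 9 fell and none rose, with a median of −0.14 (6 without the pairing, and 7, 15 and 7 without pair 1, 2 or 3). *Mvd*, for mevalonate diphosphate decarboxylase, measured 36.9, 34.6 and 38.1 CPM with control siRNA and 23.9, 23.2 and 24.9 CPM after knockdown. The groups were far apart relative to their spread, and *Mvd* fell by 0.61 ± 0.05 (adjusted p = 0.00215). *Mvk*, *Fdps* and *Lss* fell too (−0.56, −0.39 and −0.44). The enzymes *Hmgcs1* and *Sqle*, known as sensitive targets of the sterol-sensing factor SREBP2, were not called, at −0.12 ± 0.05, adjusted p = 0.135 and −0.05 ± 0.04, adjusted p = 0.361.

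Mitosis genes had a negative median in every pair, farthest from 0 in pair 2. Of 40 members 10 fell and none rose (25.0%, against 16.5% of all genes), with a median of −1.05, and all 40 had a negative log2 fold change. The groups did not overlap in 38 of the 40, all of them lower, against 43.8% of all genes in either direction. The medians were −0.62, −2.29 and −0.48 in pairs 1, 2 and 3. *Mki67*, the marker of cycling cells, measured 117, 95.8 and 122 CPM with control siRNA and 78.7, 18.8 and 96.8 CPM after knockdown, and *Top2a*, the mitotic topoisomerase, 122, 108 and 117 CPM with control siRNA and 80.2, 22.5 and 88.6 CPM after knockdown. Replicate 2 was the lowest of the knockdown libraries by a wide margin, and for *Mki67* knockdown replicate 3 overlapped the control range. Neither change was called (−1.02 ± 0.38, adjusted p = 0.0878 and −1.04 ± 0.35, adjusted p = 0.0701). *Cdc20*, the activator of the anaphase-promoting complex, which overlaps *Elovl1*, was called lower, from 47, 50.1 and 44.6 CPM to 27.5, 10.4 and 28.9 CPM (−1.17 ± 0.31, adjusted p = 0.0361), and so were the mitotic kinase *Cdk1* (−1.04), the kinetochore gene *Spc24* (−1.01) and the checkpoint genes *Mad2l1* (−0.88) and *Bub1b* (−1.102). The count depended on how the spread was estimated. Without the pairing edgeR called no member, with 20 of 40 lower at an unadjusted p under 0.05, while DESeq2 called 17 without the pairing and 4 with it. Without pair 1, 2 or 3 edgeR called 0, 40 and 6, with medians of −1.33, −0.55 and −1.38, and without pair 1 all 40 were lower at an unadjusted p under 0.05. Without knockdown replicate 2 and without the pairing 37 were called lower, and 40 were called in a fit over all 15 libraries of the study. The size of the fall thus rests in part on knockdown replicate 2, and its direction was the same in all 3 pairs.

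Genes of DNA replication and S phase also had a negative median in every pair, but in the paired fit were called lower about as often as genes at large. Of 40 members 7 fell and none rose (17.5%, near the 16.5% of all genes), with a median of −0.57 and medians of −0.32, −1.18 and −0.22 in pairs 1, 2 and 3. A negative log2 fold change was seen in 38 of the 40. The groups did not overlap in 36 members that were lower and 1 that was higher, against 43.8% of all genes in either direction. *Gins1*, a subunit of the replicative helicase, fell from 3.42, 2.96 and 3.21 CPM to 1.77, 1.11 and 1.66 CPM (−1.08 ± 0.16, adjusted p = 0.00776), and *Rfc4*, of the clamp loader, which overlaps *Eif4a2*, from 7.84, 7.65 and 8.36 CPM to 4.79, 4.28 and 5.87 CPM (−0.68 ± 0.11, adjusted p = 0.00981). *E2f1*, a transcription factor of S phase, and *Gins4* were also called (−0.68 and −0.32). Without the pairing 2 members were called, and without pair 1, 2 or 3 the counts were 2, 31 and 11, with a median of −0.26 without pair 2. DESeq2 called 17 lower with the pairing, where 1543 of 13672 genes at large were lower, and 7 without it. The fit over all 15 libraries called 32 lower, where 2045 of 14271 genes were lower. Of 26 nucleoporins 8 fell and none rose (4 without the pairing, and 1, 13 and 4 without pair 1, 2 or 3), led by *Nup62* (−0.44).

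The promoters of mitosis genes are shown for the CHR, the element TTTGAA at which the DREAM and MMB complexes act. Of 36 windows of the list 29, or 80.6%, held TTTGAA on either strand, against 11.8% of all windows. Capitals again mark the match, which lies 18 bases before the start site of *Cdc20* and 15 before that of *Cdk1*.
*Cdc20*, chr4:118437344-118437376, minus strand: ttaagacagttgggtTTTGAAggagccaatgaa
*Cdk1*, chr10:69352913-69352942, minus strand: ctttaccgcggcgagTTTGAAactgctggc
Both genes were called lower, while others with a match, such as *Top2a* and *Mki67*, were not called. As with the CArG box, the listed genes are known for this kind of regulation and the share only describes them.

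**Figure D4:**
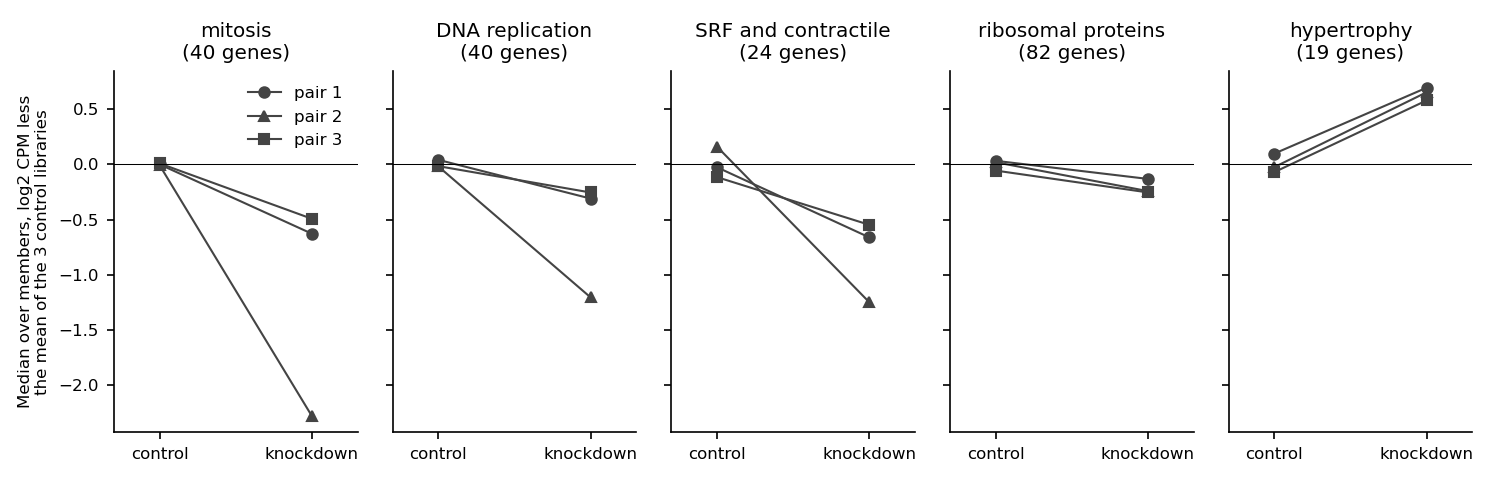
Each line joins the control and the knockdown library of 1 pair for 5 lists, and the vertical axis is the median over members of the log2 CPM less the mean of the 3 control libraries. All 3 pairs go down for mitosis, DNA replication, SRF and contractile genes and ribosomal proteins and up for hypertrophy, and pair 2 goes down farthest for mitosis, to −2.28 against −0.63 and −0.49.

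ATF4 targets, genes of the endoplasmic reticulum and lysosomal genes were called higher more often than genes at large, whereas heat shock proteins and vesicle coat genes were not. ATF4 is the transcription factor that the integrated stress response brings into play when translation initiation is slowed, and of 30 tested targets 17 rose and 3 fell (56.7% higher, against 18.1% of all genes), with a median of 0.21. *Atf3*, a stress-induced repressor, measured 18.6, 23 and 22.2 CPM with control siRNA and 34.6, 38.7 and 32.9 CPM after knockdown, and *Chac1*, which degrades glutathione, 84.1, 81.6 and 79.7 CPM with control siRNA and 116, 120.0 and 102 CPM after knockdown. All knockdown libraries lay above all controls for both genes, and the changes were 0.74 ± 0.08, adjusted p = 0.00357 and 0.46 ± 0.05, adjusted p = 0.00427. The cationic amino acid transporters *Slc7a3*, which overlaps *Snx12*, and *Slc7a1* (0.66 and 0.43) and *Ddit3*, for CHOP, which overlaps *Mars1* and *Mbd6* (0.54), rose as well. Some biosynthetic targets did not rise. *Asns*, for asparagine synthetase, measured 225, 213 and 211 CPM with control siRNA and 235, 223 and 228 CPM after knockdown and was not called (0.08 ± 0.04, adjusted p = 0.199), while *Phgdh* and *Psat1*, of serine synthesis, fell (−0.29 and −0.54). Without the pairing 9 members were higher and 1 lower, and without pair 1, 2 or 3 the counts higher were 7, 21 and 10. In the promoter windows, TGATGNAA, the core of the ATF4 composite element, was found in 9 of 29, or 31.0%, on either strand, against 2.25% of all windows. Matches to the 3 motifs overlapped each other in 0 cases. The match in *Atf3* and *Chac1* is on the opposite strand of the window and so reads as the complement.
*Atf3*, chr1:191183421-191183458, minus strand: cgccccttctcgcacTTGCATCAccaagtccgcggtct
*Chac1*, chr2:119351034-119351071, plus strand: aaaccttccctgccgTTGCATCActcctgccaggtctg
Of 9 listed genes with a match, 8 held it before the start site, of which 4 were called higher, these 2 included, and 4 were not called, *Asns* among them. Here too the list was drawn up from genes known for regulation by the factor, so the share is no independent result.

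In the endoplasmic reticulum, 10 of 28 chaperone and unfolded protein response genes rose and 1 fell, with a median of 0.10 (6 and 0 without the pairing, and 3, 12 and 7 higher and 0, 5 and 0 lower without pair 1, 2 or 3). Without pair 2 the median was 0.041. *Ern1*, the sensor IRE1α, rose from 63.7, 63.3 and 60.5 CPM to 103, 96 and 101 CPM (0.68 ± 0.05, adjusted p = 0.00166), and the cochaperone gene *Dnajb9* from 46.1, 45.8 and 47 CPM to 64.2, 73.8 and 60.2 CPM (0.51 ± 0.07, adjusted p = 0.00702). *Hspa5*, the main chaperone BiP, measured 1279, 1152 and 1266 CPM with control siRNA and 1267, 1198 and 1168 CPM after knockdown and was not called (−0.02 ± 0.06, adjusted p = 0.783). Of 32 genes of ER entry and N-glycosylation 10 rose and 1 fell, with a median of 0.13 (5 and 0 without the pairing, and 3, 15 and 4 higher without pair 1, 2 or 3). The signal recognition particle gene *Srp9* (0.60), the translocon genes *Sec62* (0.44) and *Ssr4* (0.47) and the receptor gene *Srpr* (0.30) were among those that rose. Of 39 lysosomal genes 17 rose and 3 fell, with a median of 0.18 (13 and 2 without the pairing, and 6, 22 and 12 higher and 2, 7 and 3 lower without pair 1, 2 or 3, with a median of 0.12 without pair 2). *Hexa*, a β-hexosaminidase subunit that overlaps *Tmem202*, measured 235, 235 and 250.3 CPM with control siRNA and 373, 444 and 358 CPM after knockdown, and *Lgmn*, the protease legumain, 139, 127 and 134 CPM with control siRNA and 176, 175 and 179 CPM after knockdown. Both were higher in every knockdown library (0.70 ± 0.08, adjusted p = 0.00476 and 0.41 ± 0.05, adjusted p = 0.00427). *Lipa*, lysosomal acid lipase, and *Ids*, iduronate sulfatase, fell (−0.69 and −0.67). Of 34 genes of COPII, COPI and secretory cargo receptors 6 rose and 1 fell, 17.65% higher against 18.1% of all genes (2 and 1 without the pairing). Without pair 2, 11 of them were higher and 1 lower, where 3266 of 13743 genes at large were higher. Of 21 cytosolic and mitochondrial heat shock proteins 3 rose and 5 fell, 14.3% higher, with a median of −0.13 (0 and 4 without the pairing).

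Growth plate genes and collagen chains rose more often than they fell. Of 19 genes of chondrocyte hypertrophy and mineralization 14 rose and none fell, with a median of 0.64 (10 without the pairing, and 9, 17 and 13 without pair 1, 2 or 3). *Col10a1*, the collagen of hypertrophic chondrocytes, which overlaps *Nt5dc1*, measured 243, 293 and 195 CPM with control siRNA and 579, 892 and 516 CPM after knockdown. *Phospho1*, a phosphatase that starts mineral formation in matrix vesicles, which overlaps *Abi3*, measured 49.6, 51.1 and 34.2 CPM with control siRNA and 95.2, 118 and 71.5 CPM after knockdown. The groups did not overlap for either, and the changes were 1.42 ± 0.08, adjusted p = 0.00128 and 1.07 ± 0.06, adjusted p = 0.00138. *Mef2c*, a transcription factor of hypertrophy, rose by 0.70 ± 0.05. Of 41 collagen chains 20 rose and 7 fell, with a median of 0.34 (13 and 1 without the pairing, and 10, 25 and 14 higher without pair 1, 2 or 3), among them *Col27a1*, *Col25a1* and *Col9a2* (1.01, 1.90 and 0.94). Osteoblast markers summed to 173 to 233 CPM with control siRNA and 191 to 302 CPM after knockdown, with 4 of 7 higher and none lower, and 8 of the 10 chondrocyte markers were called higher. The part of either in these rises was not tested.

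Channels and transporters also leaned upward. Of 36 potassium channel genes 14 rose and 2 fell, with a median of 0.36 (9 and 1 without the pairing, and 8, 16 and 10 higher without pair 1, 2 or 3). The voltage-gated channel genes *Kcna2* and *Kcng1* rose from 1.28, 1.77 and 1.38 CPM to 5.31, 8.38 and 4.83 CPM and from 1.12, 1.40 and 0.765 CPM to 4.27, 4.99 and 3.13 CPM. Their log2 fold changes were 2.04 ± 0.14, adjusted p = 0.00166 and 1.92 ± 0.14, adjusted p = 0.00176. *Kcnma1*, for the BK channel (0.68), and *Kcnd3* (1.44) rose too. Of 215 solute carriers 78 rose and 18 fell, 36.3% against 18.1% of all genes higher, with a median of 0.16 (45 and 9 without the pairing, and 32, 93 and 47 higher without pair 1, 2 or 3). The choline transporter *Slc44a2* (1.07), the phosphate transporter *Slc20a1* (1.08), the amino acid transporter *Slc43a2* (1.08) and the glutamate transporter *Slc1a1* (0.89) were named by the smallest adjusted p-values.

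Genes of the pathways nearest to tankyrase moved without a common direction. Of 22 known substrates and partners 2 rose and 3 fell, with a median of −0.06, a smaller share than the 34.6% of all genes (1 and 1 without the pairing, and 2, 5 and 2 lower without pair 1, 2 or 3). The angiomotin genes *Amotl2* and *Amot* fell (−0.91 and −0.87), and *Sh3bp2* rose (0.78). *Axin2*, a substrate and also the standard feedback target of β-catenin, measured 3.42, 2.48 and 3.40 CPM with control siRNA and 3.09, 1.68 and 3.17 CPM after knockdown. The groups overlapped and *Axin2* was not called (−0.25 ± 0.15, adjusted p = 0.242). Among 17 β-catenin feedback targets 2 rose and 4 fell (2 and 2 without the pairing), although 11 had a positive and 6 a negative log2 fold change. Their median was 0.32, with 0.12, −0.24 and 0.35 in pairs 1, 2 and 3 and 0.15, 0.40 and 0.14 in the fits without pair 1, 2 or 3. *Lef1* and *Bambi* rose (0.58 and 0.76), and *Apcdd1* and *Lgr6* were among those that fell (−0.82 and −0.64). Ligands and receptors of the Wnt pathway changed more often, 11 of 25 higher and 9 lower (8 and 2 without the pairing, and 6, 12 and 5 higher and 2, 11 and 5 lower without pair 1, 2 or 3), and the receptor genes *Fzd4* and *Fzd9* and the ligands *Wnt4* and *Wnt5b* rose (1.28, 0.68, 1.20 and 1.06). The secreted antagonists *Frzb*, *Sfrp4* and *Sfrp5* rose by 2.01, 1.01 and 2.25 on the log2 scale, within a list of 9 in which 4 rose and 3 fell (4 and 0 without the pairing).

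In the BMP pathway 12 of 30 genes rose and 10 fell (8 and 6 without the pairing). *Grem1*, the BMP antagonist gremlin, measured 76.3, 52.3 and 98.6 CPM with control siRNA and 311, 233 and 312 CPM after knockdown. *Gdf5*, the BMP ligand of joints, measured 14.9, 21.1 and 16.7 CPM with control siRNA and 39.8, 65.1 and 36.5 CPM after knockdown, and *Bmp4*, 64.4, 53.1 and 58.1 CPM with control siRNA and 28.8, 6.02 and 26.5 CPM after knockdown. *Grem1* and *Gdf5* rose in all 3 pairs, while *Bmp4* fell in all and was lowest in knockdown replicate 2. The changes were 1.95 ± 0.10, adjusted p = 0.00127, 1.39 ± 0.10, adjusted p = 0.0017 and −1.68 ± 0.38, adjusted p = 0.0231, and that of *Bmp4* was not called without the pairing (adjusted p = 0.071). Of 22 p53 targets 12 fell and 5 rose (9 and 3 without the pairing, and 4, 12 and 6 lower without pair 1, 2 or 3), with the smallest adjusted p for *Perp*, a desmosomal protein (−1.11). Among 23 NF-κB targets and acute-phase genes 10 fell and 4 rose (7 and 1 without the pairing, and 7, 11 and 6 lower without pair 1, 2 or 3). *Ptgs2*, the inducible cyclooxygenase (−0.93), *Traf1* (−1.21) and *Tnfaip2* (−1.03) fell, and *Lcn2* rose (1.14).

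Interferon-stimulated genes differed among the control libraries. Of 38 such genes 8 fell and 1 rose (none in either direction in edgeR without the pairing, where 1 was lower at an unadjusted p under 0.05 and DESeq2 called 1). Without pair 1, 2 or 3 the counts lower were 4, 19 and 0, with 5 lower at an unadjusted p under 0.05 in the last. *Ifit1* measured 2.52, 1.37 and 16.4 CPM with control siRNA and 1.46, 0.463 and 3.52 CPM after knockdown, so that control replicate 3 was the high library, and the list's median was 0.07, −0.24 and −0.54 in pairs 1, 2 and 3. The leukocyte markers summed to 15.9 to 17.6 CPM with control siRNA and 36.9 to 54.3 CPM after knockdown. Only 3 of 10 passed the filter, of which 1 was higher and none lower, with log2 fold changes from −0.09 to 1.83. *Ptprc*, *Adgre1*, *Csf1r* and *Itgam* did not pass it, and the part of leukocytes in this list was not tested.

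Gene families taken by symbol stem, with 20 or more genes tested, were read without a curated list. They are not independent of the lists above. The Col stem gave the same counts and median as the collagen chains, 20 higher and 7 lower of 41. The Rpl and Rps stems share members with the cytosolic ribosomal protein list, and the Nup stem with the nucleoporins. The largest shares called higher were in the Col, Klhl, Cd and Sema stems, 48.8%, 40.7%, 40.0% and 40.0%, against 18.1% of all genes. The Klhl genes encode adaptors of cullin ubiquitin ligases, and 11 of 27 rose and none fell, with a median of 0.25. The largest shares called lower were in Rpl, Rps, Nup and Arhgap, 58.0%, 55.6%, 38.1% and 37.0%, against 16.5% of all genes. The Arhgap genes encode GTPase-activating proteins, many of which act on switches of the actin cytoskeleton, and 10 of 27 fell and 1 rose. In a list of Zfp zinc finger genes both shares lay below those of all genes, since of 355 tested 33 rose and 13 fell, 9.30% and 3.66% (10 and 4 without the pairing, and 5, 51 and 9 higher without pair 1, 2 or 3).

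The knockdown was last set against the inhibitors, each effect taken over the control of its own table in a model of all 15 libraries. The difference from the XAV939 effect passed the test in 28.1% of the 14271 genes of that model and the difference from the IWR-1 effect in 36.3%. By direction, the knockdown effect was below that of XAV939 in 1814 genes and above it in 2203. It was below that of IWR-1 in 2424 genes and above it in 2757. The agents and the controls differ between these tables and a time is given for the inhibitors alone, and what each contributes cannot be told apart. These differences were not computed without knockdown replicate 2. The inhibitor comparisons share the DMSO libraries. Cytosolic ribosomal protein genes had medians of −0.21 with the knockdown, 0.29 with XAV939 and 0.26 with IWR-1, and the knockdown effect was below that of XAV939 in 56 of 82 members and below that of IWR-1 in 58, and above in none. Mitochondrial ribosomal protein genes had medians of −0.12, 0.18 and 0.26, with the knockdown below in 22 and 39 of 78 and above in none. DNA replication genes had medians of −0.57, 0.39 and −0.03, with the knockdown below in 34 and 19 of 40, and mitosis genes −1.07, 0.02 and −0.18, with the knockdown below in 26 and 18 of 40.

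Other lists fell further with the inhibitors than with the knockdown. HIF targets outside glycolysis had medians of −0.07, −0.88 and −0.99 with the knockdown, XAV939 and IWR-1, and the knockdown effect was above in 18 and 20 of 24. Immediate-early genes had medians of −0.21, −1.03 and −1.52, with the knockdown above in 15 and 22 of 26. *Axin2* had log2 fold changes of −1.48 ± 0.17 with XAV939 and −2.31 ± 0.19 with IWR-1, and the knockdown effect differed from both (adjusted p = 0.00248 and 4.12e-05). For SRF and contractile genes the medians were −0.83, −0.44 and −0.46, and the difference passed the test in 5 of 24 members against either inhibitor, below the share of all genes. *Acta2* was 1 of these, since it rose by 1.73 ± 0.29 with IWR-1 and the knockdown effect differed from this (adjusted p = 5.95e-05). *Ptprn* was at −0.13 ± 0.15 with XAV939 and fell by 1.17 ± 0.16 with IWR-1, and *Uchl1* was at −0.30 ± 0.14 and −0.69 ± 0.14. The knockdown effect on *Ptprn* and *Uchl1* differed from both inhibitors (adjusted p from 1.44e-07 to 9.11e-06). Hypertrophy and mineralization genes had positive medians of 0.63, 0.11 and 0.10 with the knockdown, XAV939 and IWR-1. The knockdown effect was above in 7 and 7 of 19 members and below in 3 and 5. For *Phospho1*, a member of this list, the inhibitors went the opposite way, −1.40 ± 0.12 with XAV939 and −1.69 ± 0.12 with IWR-1. Both differences passed (adjusted p = 3.09e-06 and 2.06e-07).

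**Figure D5:**
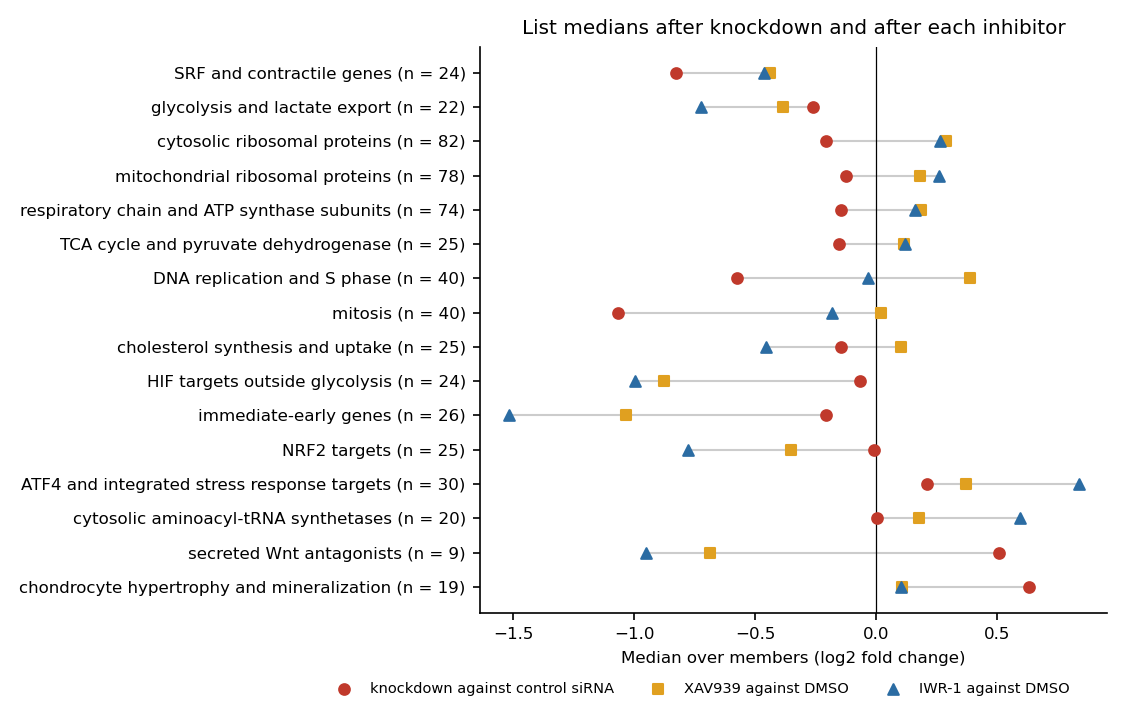
For 16 lists the points give the median log2 fold change over members after knockdown (against control siRNA), XAV939 and IWR-1 (each against DMSO), joined by a grey line. The points for ribosomal proteins lie at −0.21, 0.29 and 0.26 and those for HIF targets at −0.07, −0.88 and −0.99.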

How the data were processed

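Total RNA of 15 chondrocyte libraries was made into TruSeq Stranded mRNA libraries for Illumina sequencing, and 6 of them, 3 per group, enter the knockdown comparison. The deposited values are raw read counts per gene, which the authors made with Trimmomatic 0.32, TopHat2 2.0.13 and HTSeq 0.6.1p1 on mm10 (versions from the submitters' processing notes). The counting annotation and strand setting are not given in the sources used here, so reads of overlapping or antisense genes may be mixed. Of 24134 gene IDs 24051 matched a symbol and 83 did not. Reads carry no molecular identifiers.

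The knockdown was fitted with edgeR 4.0.16 (R 4.3.3): filterByExpr, TMM scaling and the quasi-likelihood F test, with the replicate number as a block, Benjamini-Hochberg adjusted over 13672 genes and called under 0.05. SEs are the absolute log2 fold change over the square root of F. The replicate numbers come from the labels. After removal of group means, libraries of the same number correlated at 0.424, 0.519 and 0.466 and those of different numbers at −0.409 to 0.0972. With 3 libraries per group, removing the means itself pushes different numbers down where the same numbers go together, so this contrast is in part built in. The numbers were taken to pair the libraries. What a number shares is not stated, and p-values measure only the spread between these samples. The inhibitor comparison used 1 model of all 15 libraries with table and replicate number as a block. DESeq2 1.42.0, used by the authors for their own comparison, was an alternative. The scripts were tested on simulated data.

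The comparison, the gene lists and the markers were chosen with earlier results of these data known. Text names *Tnks* and *Tnks2*, the 10 called genes each way with the largest log2 fold change (mean of at least 5 CPM, all pairs one way, groups not overlapping), up to 4 called members per list with the smallest adjusted p, and genes that define a list. Members named beyond these in a list were chosen after their values were seen. Some genes that these rules name are not reported here. Sequence came from the siRNA list of the study, GENCODE M21 and RefSeq (GRCm38.p6) start-site windows.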

Additional observations from a re-analysis of the deposited data

How the results depend on the processing

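The counts of calls moved with the pairing, the tested fold and the libraries left out. Without the replicate block 2459 genes were called, 1419 higher and 1040 lower, against 4727, 2471 and 2256 with it, and a test against a fold change of 1.5 called 353 (272 higher and 81 lower). The DESeq2 test with no replicate block called 3172, of which 1478 were lower. RLE or upper-quartile scaling, other count filters, DESeq2 with the block and a fit over all 15 libraries gave 3264 to 4773 calls, within 1.5 times of the count reported. Leaving out 1 pair in turn gave 1473 to 6550 calls, 885 to 3266 higher and 588 to 3284 lower, the fewest without replicate 1 and the most without replicate 2. With no block, leaving out control replicate 1, 2 or 3 gave 608, 930 and 678 calls (413, 614 and 454 higher; 195, 316 and 224 lower), and leaving out knockdown replicate 1, 2 or 3 gave 800, 2868 and 2229 (546, 1562 and 1295 higher; 254, 1306 and 934 lower). When pairs were left out *Tnks* stayed between −1.997 and −1.68 and *Tnks2* between −1.21 and −0.97. No gene called in both fits had opposite directions in any alternative. Of the 149 other genes named, 130 stayed on their side of the threshold without the replicate block and 19 lost their call, 30 lost it without replicate 1, 8 without replicate 3, and 3 gained one without replicate 2. The test against a fold change of 1.5 lost 94 of them, and with no block 89, 72 and 80 were lost without control replicate 1, 2 or 3 and 73, 6 and 21 without knockdown replicate 1, 2 or 3. With 3 pairs and 2 residual degrees of freedom, the calls of cytosolic ribosomal protein genes went from 53 to 1 without replicate 1 and to 4 without replicate 3, and the cause was not tested.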

Other observations

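Several lists not described above also held genes that changed. Complement genes leaned upward, with 5 of 12 higher and 2 lower and a median of 0.16 (3 and 0 without the replicate block). The complement component *C4b* (1.22) and the membrane regulator *Cd55* (0.82) rose, and *C1ra* fell (−0.66). *C4b* measured 229.7, 253 and 264 CPM with control siRNA and 537, 652 and 549 CPM after knockdown, with no overlap between the groups. In the IGF axis 8 of 19 rose and 3 fell (4 and 0 without the block, and 13 and 4 without pair 2). The adaptor *Irs1* (0.41) and the proteases *Pappa2* (1.11) and *Htra1* (0.36) were among those that rose. Of 22 imprinted genes 10 rose and 5 fell (4 and 3 without the block), with the cyclin-dependent kinase inhibitor *Cdkn1c* higher (0.96) and *Peg10* lower (−0.45). Semaphorins, plexins, ephrins and their receptors moved both ways, 15 of 58 higher and 14 lower (8 and 7 without the block), with *Unc5b*, *Plxnb1* and *Sema5a* higher (0.67, 0.60 and 0.74). Glycosaminoglycan synthesis and sulfation genes rose in 17 and fell in 10 of 43 (9 and 6 without the block), and matrix metalloproteinases, ADAMTS proteases and TIMPs in 12 and 7 of 32 (7 and 1 without the block).

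Immediate-early genes fell in 9 and rose in 2 of 25 (6 and 2 without the block), with *Egr1* lower (−0.59) and the small GTPase gene *Rhob* higher (0.44). NRF2 targets moved both ways, 6 higher and 6 lower of 25 (3 and 3 without the block). Lists with a smaller share called than the 34.6% of all genes included proteasome subunits (1 and 6 of 35, 0 and 4 without the block), SR proteins and hnRNPs (0 and 5 of 31, 0 and 2 without the block), cytosolic aminoacyl-tRNA synthetases (2 and 3 of 20, 0 and 1 without the block), circadian clock genes (2 and 2 of 19, 1 and 1 without the block) and HOX genes (0 and 3 of 25, 0 and 2 without the block). Also below this share were ribosome biogenesis (0 and 5 of 32, 0 and 3 without the block), replication-type histones (1 and 2 of 18, 0 and 2 without the block), intraflagellar transport and the BBSome (2 and 5 of 31, 1 and 4 without the block) and autophagy (6 and 2 of 27, 1 and 2 without the block). Without pair 2, circadian clock genes had 7 higher and 5 lower of 19, and intraflagellar transport and the BBSome 4 and 12 of 31. In that fit 6550 of 13743 genes were called. For the RNA interference machinery and nucleic acid sensors, which siRNA transfection itself can engage in both groups, 3 of 20 were higher and 4 lower. Without the block edgeR called none of them, with 1 higher and 2 lower at an unadjusted p under 0.05, and DESeq2 called 1 lower.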
